A study of Zea mays with 4 samples.

Results

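Zeins are the prolamin storage proteins of the maize kernel, and the genes described here are the 8 zein genes, out of 1108 genes with a named probe set on the array, that carry 14 probe sets. Members were taken by name only, as every probe set whose gene symbol on the platform, or RefSeq symbol or synonym reached through the Entrez identifier, is that of a zein. They fall into 5 alpha zein genes with 6 probe sets (z1D_2, z1C1_20, z1C1_4, z1C1_12 and fl2, whose RefSeq symbol is z1C2), 2 gamma zein genes with 4 probe sets (zp27, whose RefSeq symbol is gz27, and gz50) and 1 delta zein gene with 4 probe sets (dzs18). No probe set was named for a beta zein gene. RNA came from maize kernels 35 days after pollination, from untreated greenhouse plants, with 2 wild-type samples and 2 samples carrying the bt2-H2328 allele of bt2, which encodes a small subunit of the starch enzyme ADP-glucose pyrophosphorylase. Each sample was read on 1 Affymetrix maize array. The labels give 20 µg of total RNA for mutant 1 and both wild types and 17 µg for mutant 2, and they do not say whether the samples came from separate plants or whether mutant and wild type share a genetic background. The study asked whether blocking starch synthesis induces other pathways that can use sucrose.

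Zeins are made on the rough endoplasmic reticulum of starchy endosperm cells and are packed there into protein bodies, with alpha zeins filling the core and beta and gamma zeins forming the outer layer. Alpha zeins are the most abundant class and come from large families of near-identical genes, of which the z1C genes encode the heavier and the z1D genes the lighter proteins. They contain hardly any lysine, and their genes are activated in endosperm by the transcription factors O2 and PBF. The alpha genes with a probe set are a small sample of the family. RefSeq (assembly Zm-B73-REFERENCE-NAM-5.0) lists 41 alpha zein genes, 22 of them protein coding, and 5 of the 41 had a named probe set here. Those were 4 of 15 z1C genes and 1 of 5 z1D genes, with none of the 12 z1A and 9 z1B genes. Of the other classes, the gamma gene gz16, the beta gene bz15 and the delta gene dzs10 had no named probe set and were not analysed here.

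A zein probe set can read several copies. By the array's naming scheme, a name ending in x_at marks a probe set with some probes that also match other sequences, one ending in a_at marks probes shared by alternative transcripts of a gene, and a plain at marks probes designed as unique. z1C1_4 and z1C1_20 were read by x_at probe sets alone, so their values can include other z1C1 copies. fl2 had 1 a_at and 1 x_at probe set, and zp27 had 2 x_at and 1 a_at. z1D_2, z1C1_12 and gz50 each had 1 plain at probe set, designed as unique among the sequences known when the array was made. In the RefSeq gene order z1C1_12 and z1C1_4 are neighbours among the protein-coding genes, and so are gz50 and zp27.

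For every alpha zein gene with a named probe set, the probe sets read lower in the mutant. The gamma zeins differed by at most 0.38 on the log2 scale. For the alpha probe sets, a lower transcript level and a sequence difference under the probes cannot be told apart. The x_at values can also include other copies. All 6 alpha probe sets fell, to between 3.28% and 42.5% of the wild-type level. Of the 3 gamma probe sets tested, 1 fell, to 76.8%, and 2 did not pass the test. Values are log2 expression values made with GCRMA, on which 1 unit is a 2-fold difference, and the test was limma's moderated test with Benjamini-Hochberg adjustment over the 10458 probe sets that reached a log2 value of 4 on at least 2 arrays. Across those 10458 probe sets, 22.1% were called lower in the mutant and 21.0% higher at an adjusted p of 0.05, against 7 of 9 zein probe sets lower and 0 higher. Called falls of at least 2-fold made up 12.8% of all probe sets tested and 6 of the 9 zein probe sets. The groups did not overlap, with both mutants below both wild types, in 39.2% of all probe sets and in 8 of the 9. The median difference was -2.00 over the 9 and -0.01 over all probe sets tested, and the 9 are not independent, since several can read shared copies. All 9 were above a log2 value of 4 on all 4 arrays, so none passed the filter through 1 group alone. The other 5 zein probe sets, all 4 of dzs18 and 1 of zp27, did not pass it.

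**Figure D1:**
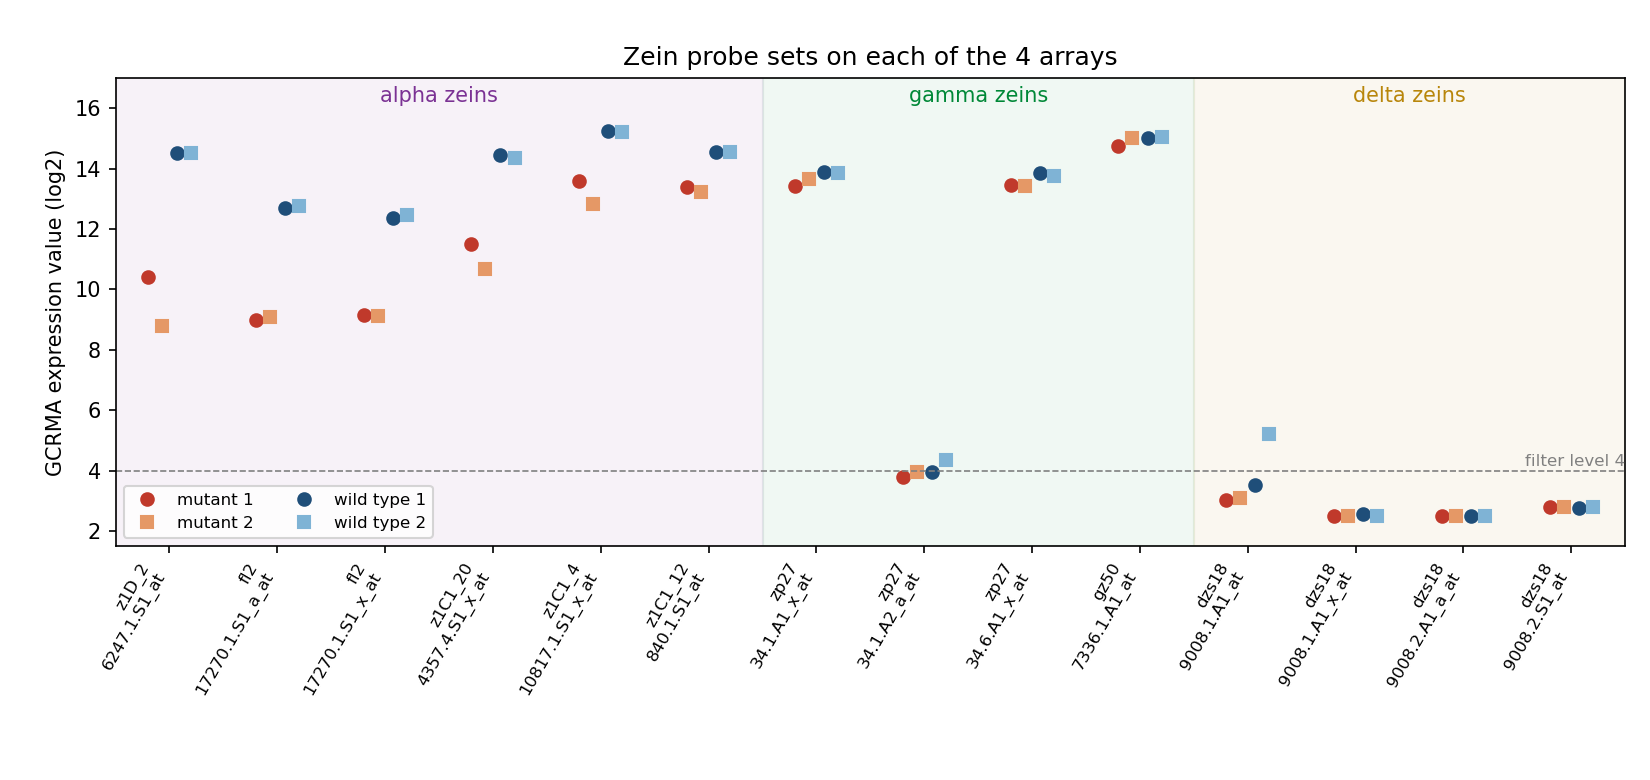
GCRMA expression value (log2, vertical axis) of all 14 zein probe sets (horizontal axis, gene and probe set number) on each of the 4 arrays, 1 point per array, with the filter level of 4 dashed. In all 6 alpha probe sets both mutant points lie below both wild-type points, while the gamma points of the 2 groups lie close together and the delta gene lies under the dashed line except for 1 wild-type point at 5.21.

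The z1D gene gave the largest difference. z1D_2 read 10.42 in mutant 1, 8.78 in mutant 2 and 14.53 in both wild types. The groups were far apart, with 4.11 log2 units between the higher mutant and the wild types. The difference was -4.93 (SE 0.56, 95% interval -6.43 to -3.43, n = 2 per group), a 30.5-fold lower level with an interval from 10.8-fold to 86.1-fold, and its limma adjusted p was 0.00842. Of all probe sets tested, 14 had a larger fall. In the values below, replicate 1 stands before replicate 2, and the wild types follow the word against.

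fl2 is an alpha zein gene of the z1C subfamily, known from a floury-kernel mutation that leaves the signal peptide of the protein uncleaved. Its a_at probe set read 9.0 and 9.10 in mutant kernels against 12.68 and 12.77. Its x_at probe set read 9.15 and 9.11 against 12.36 and 12.45. In both probe sets the mutants lay at least 3.21 below the wild types, and arrays of 1 group differed by at most 0.10. The differences were -3.68 (SE 0.10) and -3.28 (SE 0.10), or 12.8-fold and 9.68-fold lower, each with a limma adjusted p of 0.00514.

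The z1C1 genes with a named probe set, which code for the same type of heavier alpha zein as fl2, all fell. z1C1_20 read 11.49 and 10.69 in mutant kernels against 14.46 and 14.36, so that the groups lay 2.87 apart. It fell by 3.32 on the log2 scale (SE 0.28, 95% interval -4.08 to -2.56), with a limma adjusted p of 0.00725. z1C1_4 read 13.60 and 12.84 against 15.25 and 15.20. Its difference was -2.00 (SE 0.27, 95% interval -2.72 to -1.29, adjusted p 0.0101 from limma), which left it at 24.9% of the wild-type level. The neighbouring gene z1C1_12 had the smallest alpha difference, at 13.39 and 13.22 in the mutants and 14.54 in both wild types. It fell by 1.24 on the log2 scale (SE 0.10, 95% interval -1.49 to -0.98, limma adjusted p 0.00683) and kept 42.5% of its wild-type level. The z1C1_4 probe set sat near the top of the scale in the wild types, where only 2 and 3 other probe sets read higher on the 2 arrays.

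**Figure D2:**
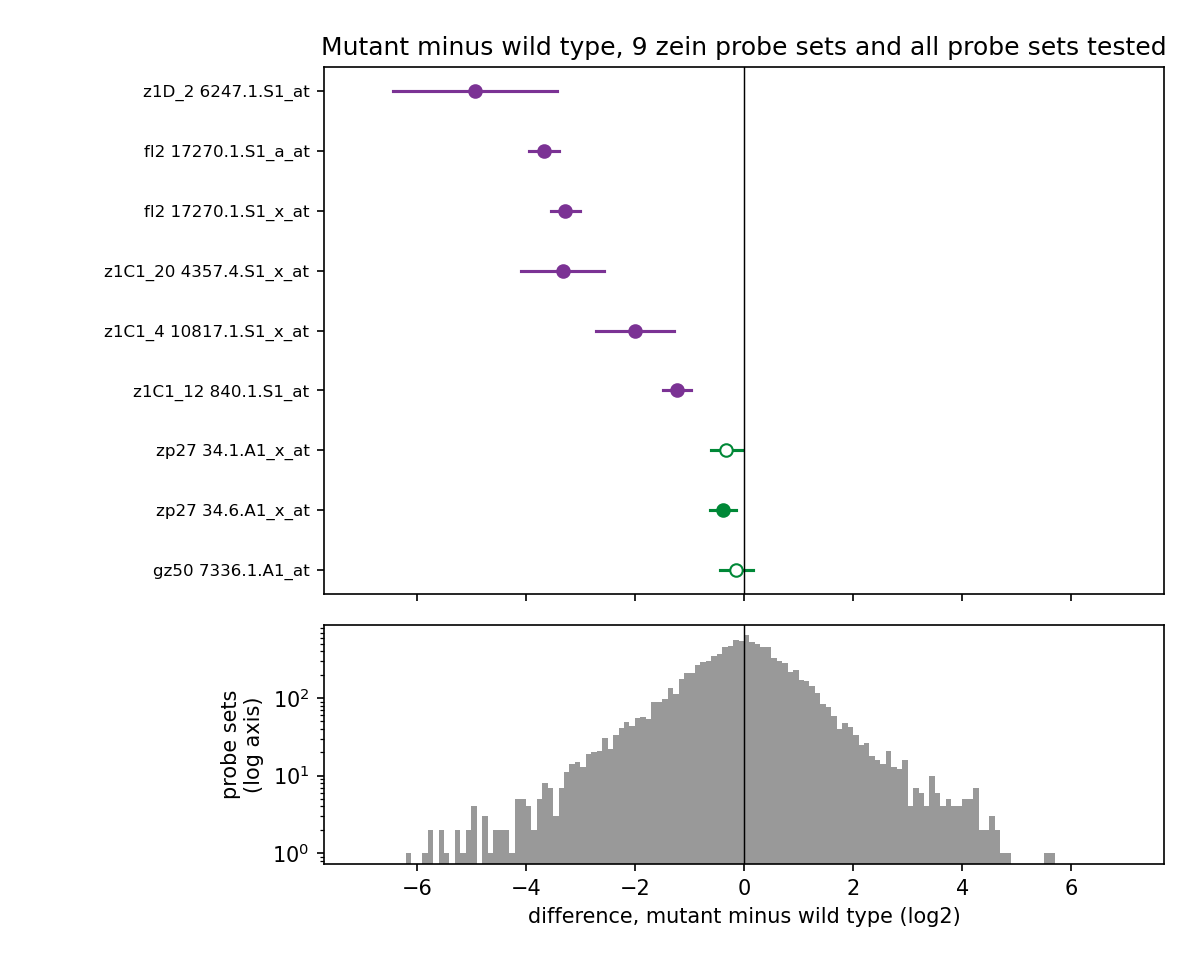
Upper panel, difference between mutant and wild type (log2, horizontal axis) of the 9 zein probe sets tested, with 95% intervals from limma; filled points passed an adjusted p of 0.05, alpha zeins are purple and gamma zeins green. Lower panel, all 10458 probe sets tested on the same horizontal axis, with their number on a log axis; the alpha points run from -4.93 to -1.24 and the gamma points lie between -0.38 and -0.14.

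The gamma zein zp27 forms part of the outer layer of protein bodies through cysteine-rich chains linked by disulfide bonds. One of its x_at probe sets read 13.46 and 13.41 in mutant kernels against 13.87 and 13.76, a difference of -0.38 (SE 0.09) with a limma adjusted p of 0.0304. That call was lost with no filter (adjusted p 0.0660), without the variance trend (0.0745), under quantile normalization (0.202) and whenever 1 array was left out. The other x_at probe set read 13.43 and 13.64 against 13.88 and 13.84, a difference of -0.33 (SE 0.11, 95% interval -0.61 to -0.04) with an adjusted p of 0.0685 from limma. Neither pair of groups overlapped, with gaps of 0.30 and 0.20, and at most 86 probe sets read higher on any array. The a_at probe set of zp27 disagreed in level, at 3.80, 3.96, 3.95 and 4.35 in mutant 1, mutant 2, wild type 1 and wild type 2, and was not tested.

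gz50, a gamma zein of higher mass, read 14.75 and 15.00 in mutant kernels against 15.00 and 15.03. Mutant 2 equalled wild type 1, so the groups touched. The difference was -0.14 (SE 0.11, 95% interval -0.44 to 0.16) with a limma adjusted p of 0.358, and under quantile normalization it turned to 0.12. That interval spans a level from 1.36-fold lower to one slightly higher in the mutant. At most 10 probe sets on any array read higher than gz50, so its values lie at the top of the measured scale, and whether that narrowed the difference was not tested.

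The delta zein dzs18, of a class rich in methionine, was near background. Its probe sets read between 2.49 and 3.53 except for 1 value, 5.21 in wild type 2 in the probe set where wild type 1 read 3.53 and the mutants 3.02 and 3.09. The other 3 probe sets of dzs18 differed between arrays by at most 0.07 within a group. No test was made on them.

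The changes of any pair of zeins were also set against each other within each array, with each gene read by its brightest probe set. The offset between probe sets has no meaning by itself, and its change between groups shows whether 1 probe set moved more than the other. Whether shared copies or values near the top of the scale altered these changes was not tested. The per-array difference between z1D_2 and zp27 was -3.01 and -4.86 in mutant kernels against 0.65 and 0.69, a change of -4.60. Between fl2 and zp27 it was -4.43 and -4.54 against -1.20 and -1.07, a change of -3.35. z1C1_12, the alpha gene with the smallest fall, changed by -0.91 against zp27, from 0.66 and 0.70 in the wild types to -0.04 and -0.42. Within the alpha class, z1C1_20 changed by -1.31 against z1C1_4, and z1C1_12 changed by 2.09 against z1C1_20. The groups overlapped for fl2 and z1C1_20, at -2.49 and -1.59 in mutant kernels against -1.78 and -1.59. The 21 pairs of the 7 genes share genes, and with 2 arrays per group the smallest two-sided exact permutation p is 0.333, adjusted 0.35 over the 21 pairs, so none could pass and these values are a description.

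The 2 mutant arrays did not carry the same amount of every alpha zein. Mutant 2 read lower than mutant 1 by 1.64 in z1D_2 (3.12-fold), by 0.80 in z1C1_20 and by 0.76 in z1C1_4. These gaps were wide for this pair of arrays, since 1.12%, 5.99% and 6.85% of all probe sets tested had a larger gap between the mutants, and the median gap was 0.20. fl2 and z1C1_12 showed no such gap, at 0.10, 0.04 and 0.17, and the wild types differed by at most 0.11 in any of the 9 probe sets. Mutant 2 was the sample with less RNA, and the part of that in these gaps was not tested.

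**Figure D3:**
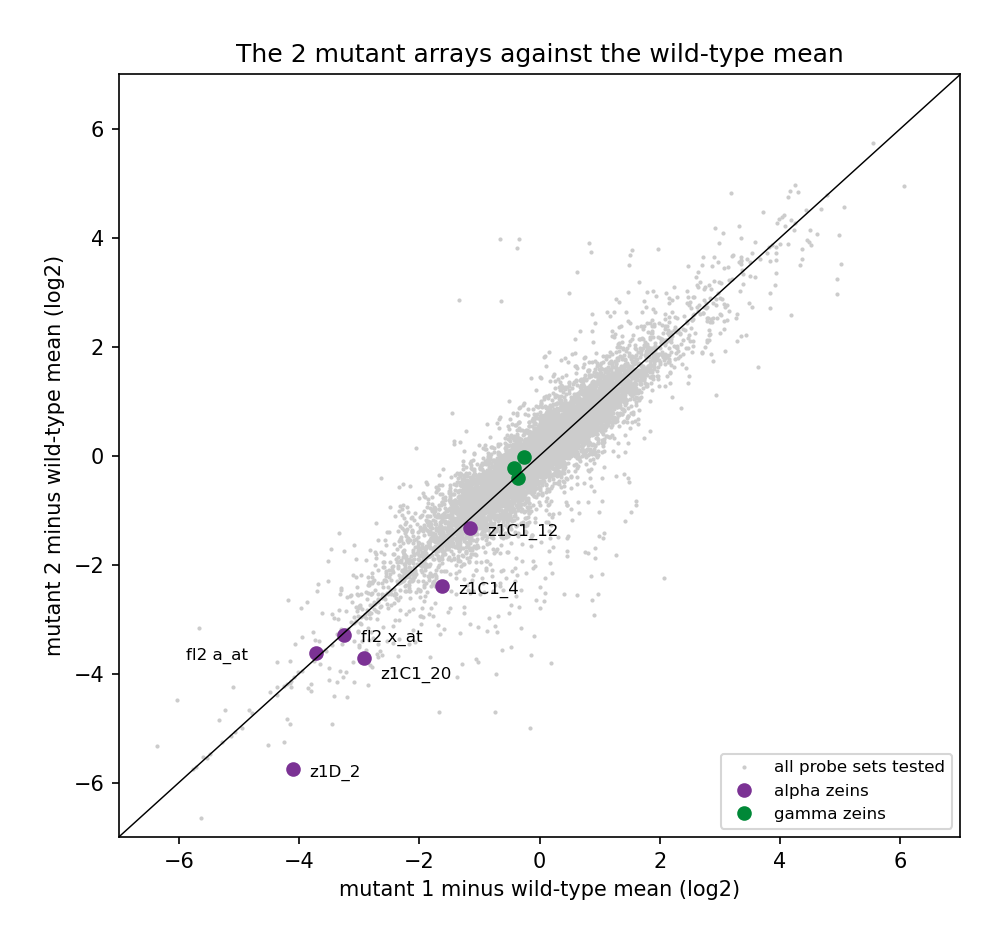
Mutant 1 (horizontal axis) and mutant 2 (vertical axis), each minus the wild-type mean (log2), with all 10458 probe sets tested in grey, alpha zeins in purple and gamma zeins in green. On the diagonal both mutants differ from wild type alike; z1D_2, z1C1_20 and z1C1_4 lie below it by 1.64, 0.80 and 0.76, while both fl2 probe sets and z1C1_12 lie close to it.

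On a list of zein activators and other endosperm transcription factors, genes went both ways. The list had 6 measured genes, of which 3 fell and 2 rose, beside 22.1% lower and 21.0% higher over all probe sets tested, and their median was -0.42. pbf1, which encodes the factor PBF that binds the prolamin box of zein promoters, read 6.86 and 6.73 in mutant kernels against 9.32 and 9.66, a difference of -2.69 with a limma adjusted p of 0.00661. o2, a bZIP activator of z1C genes, read 10.36 and 10.16 against 11.20 and 11.42, a difference of -1.05 with an adjusted p of 0.00989, while its other probe set read -1.18 and did not pass. Nkd1, an endosperm zinc finger factor, fell by 1.01. The o2-related genes ohp1 and ohp2 read 0.69 and 0.17, the former past the threshold and the latter not, and GBF1 rose by 0.65. On arrays centred on the poly-A controls, ohp1 and GBF1 turned to -0.54 and -0.58.

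Most of the measured genes for zein deposition in the endoplasmic reticulum fell. Of 8 genes, 6 fell and PDIL2-1 alone rose, while PDIL5-1 did not pass, and the median difference was -1.23. Over all probe sets tested, 22.1% were called lower and 21.0% higher, and the median was -0.01. The chaperone gene bip1 read 9.62 and 10.13 in mutant kernels against 11.77 and 12.03, and PDIL1-1, a protein disulfide isomerase, read 10.21 and 10.30 against 11.94 and 11.96. These are differences of -2.02 and -1.69, with no overlap. bip2, crt2 and PDIL2-3 also fell, with differences of -1.29, -1.52 and -1.18. fl1, which encodes a protein body membrane protein that helps to place alpha zeins, fell by 0.67 (adjusted p 0.0206 from limma), from 10.76 and 10.68 in the wild types to 10.18 and 9.92. PDIL2-1 rose by 1.09 and read -0.14 when centred on the poly-A controls.

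Of 7 tested genes of amino acid supply, 3 were called higher and 2 lower, and the median difference was -0.43. With 22.1% lower and 21.0% higher over all probe sets tested, these counts are not read as a result about the list. ppdk1, the pyruvate phosphate dikinase whose endosperm form is controlled by O2, fell by 2.16, and its 3 further tested probe sets fell too, with differences of -2.67 to -0.83. Of the glutamine synthetase genes, gln2 read -1.35, gln1 1.86 and gln5 1.02, and on the poly-A centring gln1 read 0.63 (limma adjusted p 0.164) and gln5 -0.20. The asparagine synthetase gene asn1 rose by 1.99. gln1 passed the filter through the mutants alone, with both wild types under 4, so its call is not independent of the filter, and the other asn1 probe set, at 2.66, did not pass. lkrsdh1, the lysine-degrading enzyme gene that O2 activates, read 8.31 and 8.74 in mutant kernels against 9.09 and 9.46, a difference of -0.75 that did not pass with a limma adjusted p of 0.0533. Of 4 genes for storage proteins other than zeins, glb3 and leg1 fell by 1.09 and 0.64, and the embryo globulin genes glb1 and glb2 read 0.32 and 0.14 without passing.

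**Figure D4:**
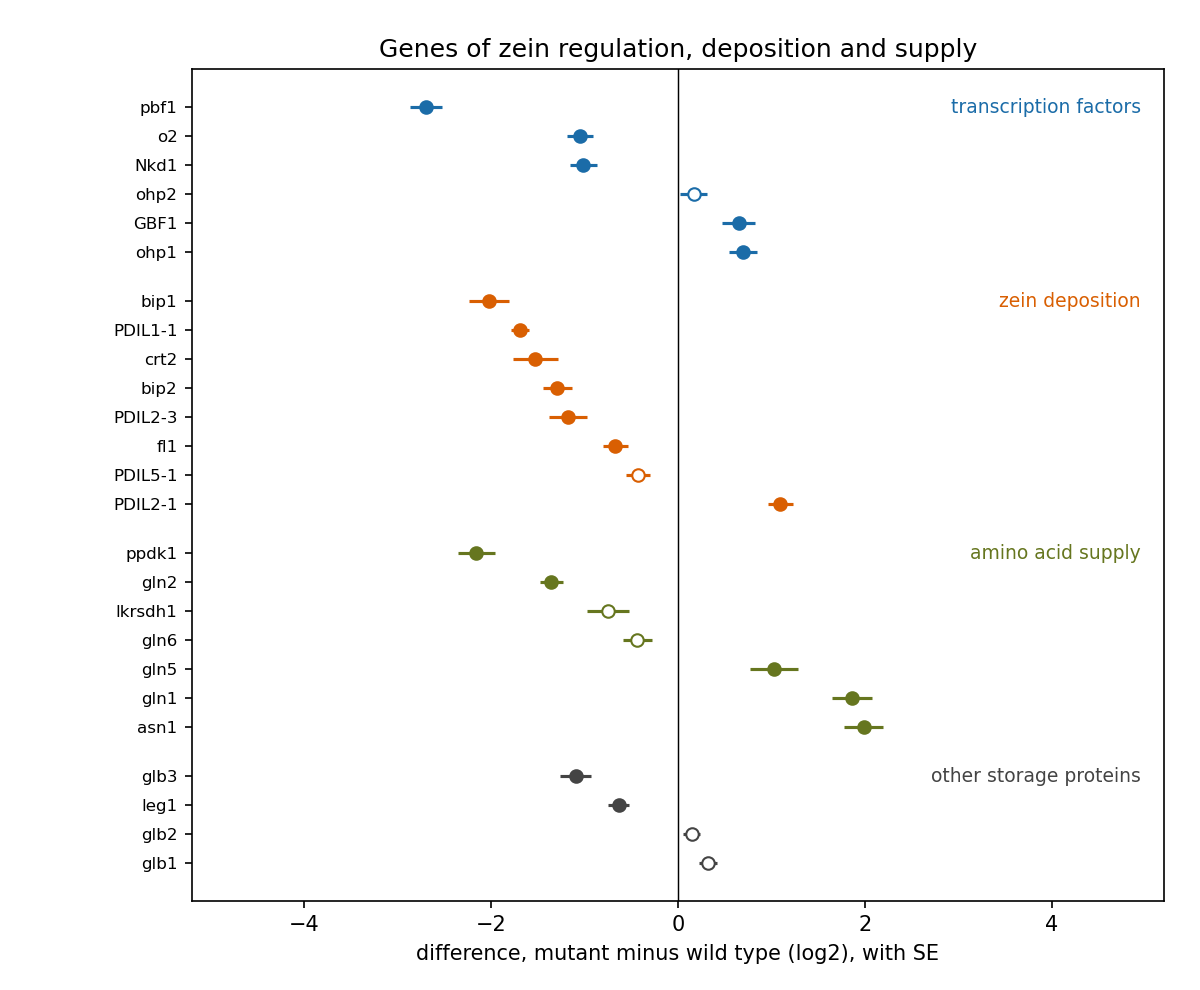
Difference between mutant and wild type (log2, horizontal axis, bars are the SE from limma, n = 2 per group) of the tested genes of 4 lists around the zeins; filled points passed an adjusted p of 0.05. pbf1 at -2.69 and ppdk1 at -2.16 lie farthest to the left, and asn1 at 1.99 and gln1 at 1.86 farthest to the right.

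Among 691 named genes, those with profiles most like each zein were found by the Euclidean distance, over the 4 arrays, between log2 values minus the wild-type mean. For fl2 they were nfd101, the sucrose phosphate synthase gene SPS, the benzoxazinoid gene bx6 and meg2, a gene of the transfer layer at the kernel base, at distances of 0.565 to 0.942. For z1D_2 they were the transfer layer gene betl3, the expansin genes expB6 and expa1, and SPS, at 0.892 to 1.78. In bx6, meg2, betl3, expB6 and expa1 both mutants read under 4, so the likeness of those genes rests on values near background. For zp27 they were hdr10, arpp1a, the glyoxalase gene glx1 and HMT-3, at 0.0583 to 0.115, and none of these 4 passed the test.

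Over the probe sets, the mutants correlated with each other at 0.980, the wild types at 0.986, and a mutant with a wild type at 0.864 to 0.910. Markers of the kernel's tissues went different ways. The gene that names the mutant, bt2, read 10.13 and 10.12 in mutant kernels against 12.67 and 12.64. Of 8 starchy endosperm markers, 6 fell and none rose, beside 22.1% called lower over all probe sets tested. The 6 that fell include bt2 itself and the transcription factor genes o2 and pbf1. wx1 and sh1 did not pass, at 0.18 and -0.32, and wx1 read 13.97 and 13.91 in mutant kernels against 13.76 in both wild types. Another probe set of sh1 was called lower, at -2.765, and another of ae1 did not pass, at -0.645. The summed level of the 8 in log2 ran from 14.96 to 15.18 in the mutants and was 15.70 in both wild types. Of 6 embryo markers, 3 rose and none fell, beside 21.0% called higher over all probe sets tested. Their sums were 16.77 to 16.84 against 16.45 to 16.57. The rises of vp1, rab17 and emb5 turned to -0.77, -0.82 and -0.80 when centred on the poly-A controls. A further tested vp1 probe set differed by 0.065 and did not pass. Of 4 tested aleurone markers, 1 rose and 1 fell, beside 21.0% higher and 22.1% lower over all probe sets tested. Sums over all 5 listed aleurone markers, the untested cr4 included, were 12.03 to 12.06 against 12.03 to 12.12. The 6 transfer layer markers had sums of 6.26 to 6.80 against 9.04 to 9.80. Of these, betl1, betl3 and meg2 passed the filter through the wild types alone, which fixed their direction, and betl2 and mn1 did not pass it, which leaves betl4, above 4 on all arrays, with a difference of -2.21. Both tested pericarp and maternal markers fell, beside 22.1% called lower over all probe sets tested. Sums over all 3 listed, the untested p1 included, were 8.61 to 9.05 against 9.92 to 9.93. cr4, betl2, mn1 and p1 were under a log2 value of 4 on every array. The part of these markers in the zein differences was not tested, and in whole kernels fewer endosperm cells and less zein RNA per cell cannot be told apart.

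The calls depend on the array-wide scale and on having 4 arrays. All 36 probe sets of the poly-A controls, RNAs of bacterial genes, read higher in the mutants, by a median of 1.20, and arrays centred on these controls gave differences shifted by -1.23. There all 9 zein probe sets passed lower, with zp27 at -1.55 and -1.61 and gz50 at -1.37, but so did 78.7% of all probe sets tested. Without mutant 1, mutant 2 or wild type 2 no zein probe set and no other probe set passed the limma threshold, although 7, 9 and 7 zein probe sets had an unadjusted p under 0.05, and without wild type 1 both fl2 probe sets and z1C1_12 passed. The z1D_2 difference was -5.75 without mutant 1 and -4.11 without mutant 2, and every alpha difference stayed below zero under each of the 12 alternatives.

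**Figure D5:**
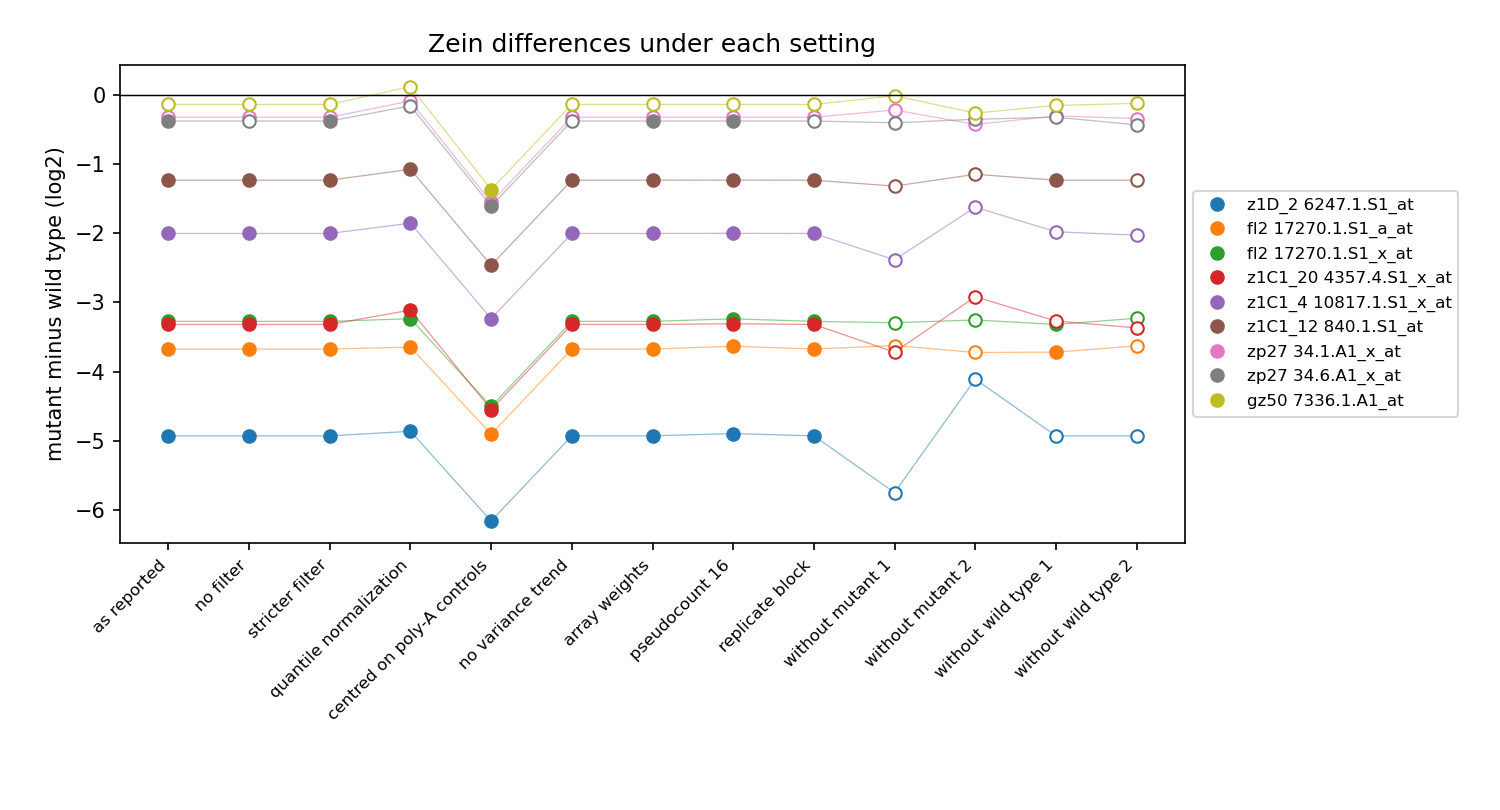
Difference between mutant and wild type (log2, vertical axis) of the 9 zein probe sets as reported and under each of the 12 alternatives (horizontal axis); filled points passed an adjusted p of 0.05. All alpha points stay below 0, and the values moved down together on the poly-A centring, where zp27 read -1.55 and -1.61.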

How the data were processed

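The deposited file holds 1 log2 expression value per probe set and array. The submitters' processing notes name GCRMA as the method. Its version and any joint normalization or centring of the arrays were not stated in the labels, and the log base was inferred from the range of the values. The medians over all probe sets were 5.41, 5.52, 5.60 and 5.66 in mutant 1, mutant 2, wild type 1 and wild type 2. Of 17620 probe sets that are not array controls, 66 of them reporter sequences, 10458 with a log2 value of at least 4 on at least 2 of 4 arrays were kept. The 2 groups were compared in limma 3.58.1 under R 4.3.3, using lmFit and eBayes with trend set to true. Tests were two-sided with Benjamini-Hochberg adjustment and a threshold of 0.05. The fit was also run on simulated independent values with added differences, which checks the code and not the calls made here. SE is the moderated standard error. The p-values reflect only how these samples vary, which may be technical variation, and the number of arrays limits the precision.

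Symbols were taken from GEO's platform annotation, which can be outdated, and updated with RefSeq, and 16167 probe sets had no gene there. The deposited data name no genome build, and no coordinates are given. Gene order was taken from positions in the RefSeq assembly. For a listed gene with several probe sets, the brightest on average stands for the gene. The named genes are all zein probe sets, up to 6 genes per list by smallest p, and the 4 nearest profiles of fl2, z1D_2 and zp27; genes beyond 6 of a list, the tissue markers and the unnamed probe sets of the closing section were named after their values were seen. Members and lists were chosen with earlier results of these data known, and genes caught only through a shared synonym were left out of lists. Alternatives changed the filter, normalization, variance model, array weights, a pseudocount of 16, the replicate block and the arrays used. Exact permutation tests used scipy 1.17.1 and figures matplotlib 3.10.9.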

Additional observations from a re-analysis of the deposited data

How the results depend on the processing

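Filter, variance trend, array weights, pseudocount and quantile normalization left the number of zein probe sets called between 6 and 7 of 9, and the call that changed was that of zp27. Under quantile normalization gz50 turned from -0.14 to 0.12, neither past the threshold. Centring on the poly-A controls raised the calls over all probe sets from 4514 to 8536, by moving every difference down, and called all 9 zein probe sets. Leaving out 1 array, with the lone array of a group assumed to vary like the other group, gave 0 to 1195 calls over all probe sets and 0 to 3 among the zeins; where the limma count was 0, 3633 to 4617 probe sets had an unadjusted p under 0.05. Fewer arrays leave 1 residual degree of freedom per probe set. With the replicate number as a block, limma called 3444 probe sets and 6 zein probe sets, the adjusted p of zp27 rising to 0.0520; the labels do not pair the samples, and the gaps between replicates of the 2 groups correlated at 0.0213 across probe sets. No pair of zein genes changed direction under quantile normalization or the pseudocount.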

Other observations

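Some probe sets without a gene name in the annotation share a number with zein probe sets. Affymetrix numbers probe sets by a cluster of related sequences, and 19 unnamed probe sets share the cluster number of fl2, zp27, z1C1_4 or z1C1_20. They are not counted as zeins, since a cluster number does not name a gene: the cluster number of zp27 is also that of a probe set annotated to another gene. Of the 19, 5 fell, 4 rose, 7 did not pass the limma threshold and 3 were under the filter, counts that are not read as a result beside 22.1% lower and 21.0% higher over all probe sets tested. The 5 that fell share the numbers of z1C1_4 and z1C1_20, with differences of -3.08 to -1.44. In each of them mutant 2 read below mutant 1, as in the named probe sets of those genes.

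A few of the unnamed probe sets went the other way. An s_at probe set in the cluster of z1C1_4 read 8.37 and 7.26 in the mutants and 2.30 in both wild types. The mean of its 2 mutant values was 14.1-fold above a log2 value of 4. An at probe set in the cluster of fl2 read 7.23 and 5.73 against 2.24 and 2.18, with the mutant mean 5.58-fold above a log2 value of 4. Its x_at partner read 7.21 and 5.50 against 2.26 in both wild types. These 3 of the 4 that rose passed the filter through the mutants alone, which fixed their direction, so their values are a description. Over all probe sets outside the controls, 0.437% had both wild types under 4 and both mutants at 5 or more, and 0.653% the reverse. An at probe set in the cluster of z1C1_20 rose by 0.64, from 11.40 and 11.36 to 12.07 and 11.96. Since the labels do not say whether mutant and wild type share a genetic background, a difference in transcript level and a difference in sequence under the probes cannot be told apart for these probe sets, nor for the named alpha zein probe sets.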
